A study of Mus musculus with 12 samples.

Results

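*Enpp2* and 5 receptors for lysophosphatidic acid, *Lpar1*, *Lpar2*, *Lpar3*, *Lpar4* and *Lpar6*, were followed across 4 groups of mouse embryoid bodies. They make up 6 of the 23086 gene symbols of the deposited count table. The set was chosen on the data: among abundant genes, *Enpp2* had the largest fall when wild-type *Lhx1* was induced, and the receptors were added for their role. The values of the wild-type response to induction are therefore given for these genes as a description, with no test.

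Embryoid bodies are aggregates in which embryonic stem cells start to differentiate. They were grown for 2 days from A2lox.cre stem cells, which carried FLAG-tagged *Lhx1* in a form that doxycycline switches on. LHX1 is a LIM homeodomain transcription factor needed for head formation. One line carried the wild-type protein and the other a mutant form, whose change is not named in the labels. Each line was either left without doxycycline or given it for 16 h, with 3 libraries a group, so that the untreated groups carry the transgene too. The labels do not say how many clones each line stands for. Nor do they say whether replicates were separate cultures, so the p-values measure the spread between these libraries, which may be technical.

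*Enpp2* encodes autotaxin, a secreted lysophospholipase D that cuts choline from lysophosphatidylcholine outside the cell and so makes lysophosphatidic acid, a signalling lipid. Cells read this lipid through G protein-coupled receptors of unlike descent. *Lpar1*, *Lpar2* and *Lpar3* belong to the EDG family, shared with the sphingosine 1-phosphate receptors, and *Lpar4* and *Lpar6* are related to the P2Y purine receptors. The receptors act through several classes of G protein, and their signals are known to reach the SRF and YAP/TAZ transcription programmes. In the mouse embryo autotaxin is needed for blood vessel formation.

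Each library held 4289984 to 4850393 counts. *Lhx1* stood at 1.12 to 3.33 CPM (read counts scaled to 1 library size by TMM) in untreated wild-type and 0.407 to 0.429 CPM in untreated mutant libraries, a log2 difference of 2.22 (SE 0.49, edgeR adjusted p = 0.000268). That difference rests on few counts, 27 in the untreated wild-type and 6 in the untreated mutant group. With doxycycline *Lhx1* stood at 289 to 307 CPM in wild-type and 235 to 260 CPM in mutant libraries. The 8 epiblast markers checked all had counts and summed to 4534 to 5429 CPM over all libraries. In each of 2 wild-type libraries a transcript stood apart from the rest of its group: untreated replicate 3 held 229 CPM of *Bnip3*, a hypoxia gene, and treated replicate 2 held 1.45% of its counts in *Rn45s*, a ribosomal precursor. Of the genes followed here, 5 passed the filter on low counts, and *Lpar3* did not.

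*Enpp2* (15:54838901-54952892, minus strand, mm10) stood at 93.1 to 131 CPM in the libraries of 3 groups and lower in treated wild-type libraries. Untreated wild-type libraries held 124, 131 and 131 CPM in replicates 1 to 3. Treated wild-type libraries held 43.4, 44.9 and 47.2 CPM. All 3 treated libraries lay far below all 3 untreated ones, and the spread within each group was small, with means of 129 ± 4.23 and 45.2 ± 1.89 CPM (SD, n = 3). The log2 fold change was -1.51 (SE 0.07), a 2.85-fold fall. As RNA came from whole embryoid bodies, fewer cells of a type that makes *Enpp2* and less *Enpp2* RNA per cell cannot be told apart.

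*Enpp2* stood in the mutant line at 101, 98.5 and 100.1 CPM without doxycycline. With doxycycline it stood at 94.7, 93.1 and 97.4 CPM. The ranges did not overlap, but they lay within a few percent of each other. The log2 fold change was -0.07 (SE 0.06, 95% interval -0.19 to 0.05), and the test did not call it (quasi-likelihood test of edgeR, adjusted p = 0.999 by Benjamini-Hochberg). On the log2 scale the responses of the lines differed by -1.44 (SE 0.09), a value given with no test. None of the 5 genes that passed the filter was called in the mutant line by edgeR, DESeq2 or limma-voom, against a background of 0.0162% of the 12322 genes tested (2 genes, with 578 at an unadjusted p under 0.05). Groups did not overlap for 1 of the 5, *Enpp2*, against 10.6% of all genes tested.

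**Figure D1:**
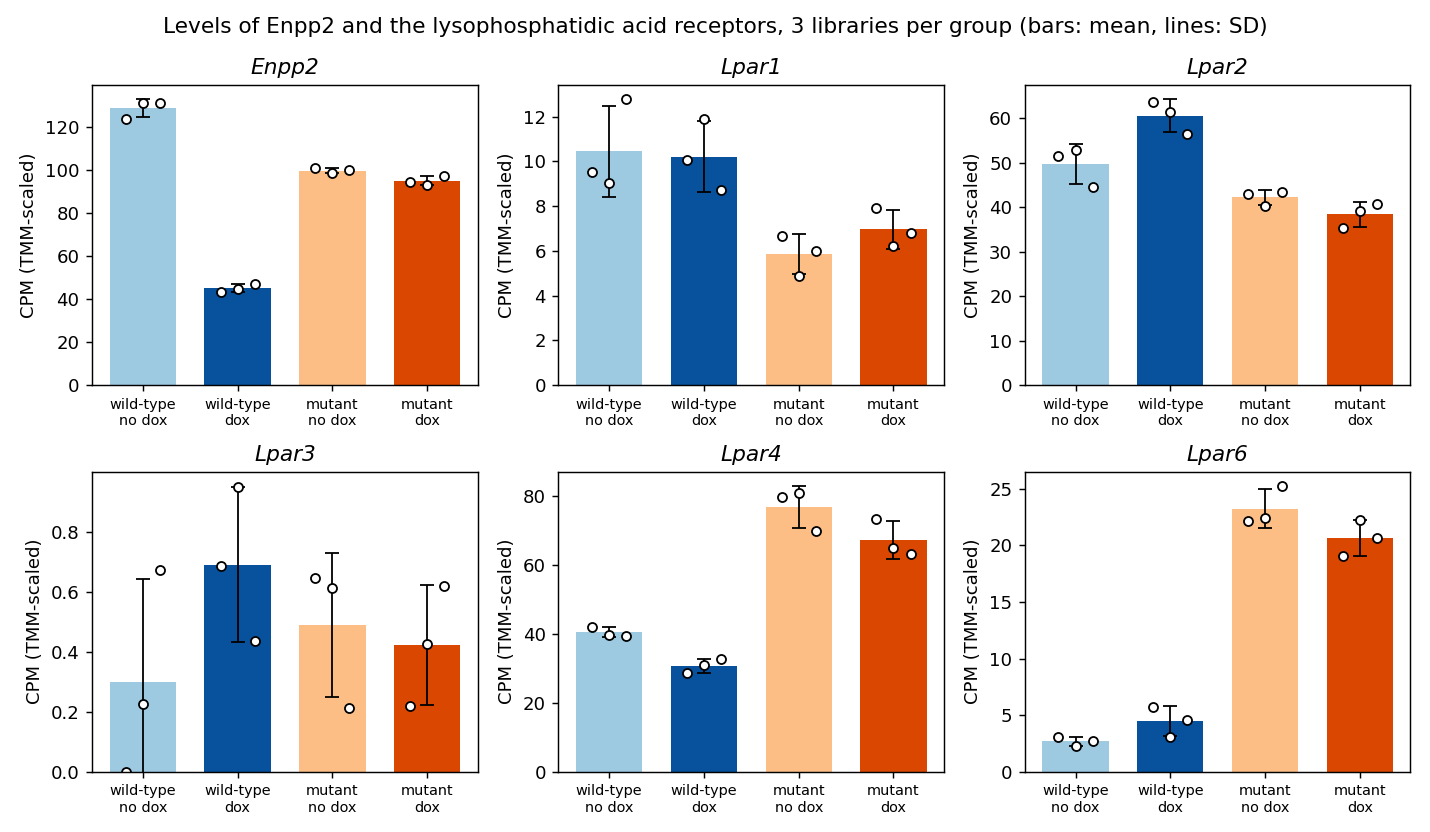
Levels of the 6 genes in CPM (vertical axes, linear from 0, a different scale in each panel) in the 4 groups; bars are means, points are the 3 libraries and lines are SDs, which are cut at 0 for *Lpar3*. *Enpp2* is lower in treated wild-type libraries (43.4 to 47.2 CPM) than in all other libraries, and *Lpar4* and *Lpar6* are higher in all mutant than in all wild-type libraries.

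The order of the lines turned with the treatment. Without doxycycline *Enpp2* was higher in the wild-type than in the mutant line, by 0.37 (SE 0.06) in log2, and with doxycycline it was lower, by -1.07 (SE 0.07). The ranges of the lines did not overlap in either condition, as held for 51.8% of all genes tested without and 51.7% with doxycycline. These values are given with no test.

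Among the 2223 genes with at least 100 CPM in untreated wild-type libraries, the fall of *Enpp2* was followed by that of *Pou3f1*, a POU factor of the epiblast and early neural plate, at -0.99 (SE 0.06). Next came *Ptch1*, the Hedgehog receptor, at -0.68 (SE 0.11), and *Bnip3* at -0.65 (SE 0.56), the gene that stood apart in an untreated library. Over all genes tested *Enpp2* ranked 14th among the falls, and every gene that fell further had at most 27.7 CPM in untreated wild-type libraries. This ordering describes how the gene was chosen.

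The genes around *Enpp2* on chromosome 15 did not share its fall. *Taf2*, a subunit of the general transcription factor TFIID, changed by -0.01 (SE 0.06) in the wild-type line, and *Dscc1*, which takes part in sister chromatid cohesion, by -0.11 (SE 0.15). On the other side *Mal2* changed by 0.03 (SE 0.18) and *Ext1*, a heparan sulfate polymerase, by 0.24 (SE 0.08). None of these 4 passed the test in the wild-type response, in which 5.32% of all genes tested were called. A noncoding gene on the opposite strand, *Gm26684*, overlaps *Enpp2* exons over 345 bases. It has no row in the table, and the use of strand in counting is not given.

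Likeness to *Enpp2* was measured as the root mean square difference between profiles, in log2 CPM centred on each gene, over the 12 libraries and 10495 genes of at least 5 CPM on average. *Pou3f1* came closest with a difference of 0.207. It was followed by *Nphs1*, which encodes nephrin, at 0.214. *Abcg1*, a sterol exporter, was at 0.287, and *Penk*, the enkephalin precursor, at 0.291. *Mycl1*, a MYC family gene, was at 0.291 and *Vrtn*, which encodes vertnin, at 0.296. The median over all genes compared was 0.590 and the lowest 1% lay under 0.423. *Pou3f1* averaged 210 ± 14.0 CPM in untreated and 105 ± 0.469 CPM in treated wild-type libraries, against 189 ± 19.6 and 193 ± 10.2 CPM in the mutant line (SD, n = 3). The closest profiles share the drop in treated wild-type libraries. This follows from the measure, as that drop is the largest change in the profile of *Enpp2*, and nothing is read from it. The 5 similar genes whose position was matched lie on chromosomes 4, 7, 12 and 17.

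**Figure D2:**
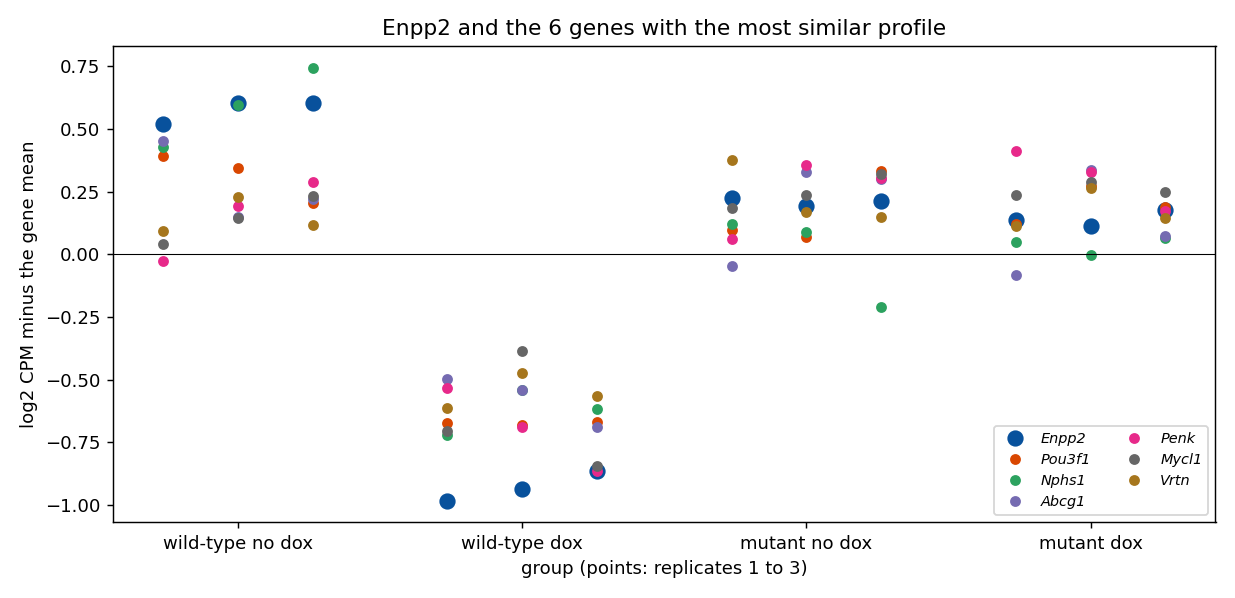
Centred log2 CPM (vertical axis, each gene minus its own mean over 12 libraries) of *Enpp2* and the 6 most similar genes; each point is 1 library, with replicates 1 to 3 from left to right in each group. All 7 genes lie below their mean in the 3 treated wild-type libraries, and *Enpp2* is the lowest of them in each. In replicate 3 it is nearly level with *Penk* (-0.864 and -0.863).

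Markers of other cell types were read beside the fall of *Enpp2*. The 13 markers of extraembryonic endoderm, a tissue that can form at the surface of embryoid bodies, summed to 19.7 to 21.9 CPM in untreated and 13.9 to 17.3 CPM in treated wild-type libraries. The sums in the mutant line were 24.6 to 34.8 and 26.3 to 28.6 CPM. Of these markers 3 passed the filter and none was called in the wild-type response, and *Sox17*, *Sox7*, *Afp*, *Apoa1* and *Ttr* were under 1 CPM in every library. *Dab2*, an endocytic adaptor and the one with the highest CPM, averaged 12.6 ± 1.91 CPM without and 8.68 ± 1.34 CPM with doxycycline in the wild-type line (SD, n = 3). The marker sum therefore moved the same way as *Enpp2* in the wild-type line, and its part in the fall of *Enpp2* was not tested. The 8 epiblast markers, which include *Pou3f1*, summed to 4843 to 5220 CPM in untreated and 4534 to 4653 CPM in treated wild-type libraries, with *Dnmt3b* the largest term at 2695 ± 133 CPM in untreated ones (SD, n = 3). That sum hides opposite calls: *Fgf5* rose by 0.88 (SE 0.06) in log2, and *Pou5f1* fell by 0.21 (SE 0.04), *Nanog* by 0.48 (SE 0.09) and *Pou3f1* by 0.99 (SE 0.06).

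The 6 mesoderm markers summed to 11.2 to 14.8 CPM in untreated and 29.6 to 38.2 CPM in treated wild-type libraries. Most of that was *Eomes*, a T-box factor, which rose from 9.38 ± 2.21 to 28.9 ± 5.34 CPM (SD, n = 3). Its log2 change was 1.62 (SE 0.15), and it was the 1 marker called of the 2 tested. *T*, *Mixl1*, *Mesp1* and *Tbx6* had at most 10 counts in each wild-type group and were not tested. The 5 neural markers summed to 66.6 to 78.3 and 91.9 to 104 CPM. *Tubb3*, a neuronal tubulin, rose by 0.40 (SE 0.08) and *Pax6* by 1.32 (SE 0.22), whereas *Neurod1* was at 8.92 ± 1.93 and 7.99 ± 1.09 CPM and was not called. *Sox1* and *Zic1* did not pass the filter. The part of these shifts in the fall of *Enpp2* was not tested. In the remaining lists the treated and untreated ranges of the sums overlapped in the wild-type line. The 6 trophoblast markers summed to 5.20 to 6.95 CPM without and 5.03 to 6.89 CPM with doxycycline. The 8 fibroblast markers held 20.3 to 37.7 and 25.2 to 26.1 CPM, and the 7 of blood and endothelium 42.6 to 48.6 and 37.3 to 48.9 CPM.

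*Lpar2* (8:69822429-69831102, plus strand) was the most abundant EDG-type receptor per exon length. In the wild-type line it stood at 51.6, 52.9 and 44.6 CPM without doxycycline and at 63.8, 61.5 and 56.5 CPM with it. The treated libraries all lay above the untreated ones, and the log2 fold change was 0.29 (SE 0.08). Mutant libraries held 42.9, 40.3 and 43.4 CPM without and 35.3, 39.1 and 40.8 CPM with doxycycline. Those ranges overlapped, and the change of -0.13 (SE 0.09) did not pass the test (edgeR, adjusted p = 0.999).

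*Lpar1* (4:58435255-58553898, minus strand), the most broadly expressed receptor of the family, was lower than *Lpar2* per exon length in every group. It stood at 9.51, 9.04 and 12.8 CPM in untreated and 10.1, 11.9 and 8.70 CPM in treated wild-type libraries. Mutant libraries held 6.66, 4.88 and 5.99 CPM without and 7.89, 6.20 and 6.80 CPM with doxycycline. The treated and untreated ranges overlapped in both lines, and the log2 fold changes were -0.04 (SE 0.18) in the wild-type and 0.25 (SE 0.22) in the mutant line.

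*Lpar3* (3:146220963-146286186, plus strand) had 0 to 4 counts a library, at most 0.95 CPM. One untreated wild-type library had no count, which at that depth allows up to 0.714 CPM (3 counts, counting error only). No fold change is given for it. *Lpar5*, the remaining receptor of the family and not among the genes chosen, averaged 1.83 ± 0.973 CPM in untreated and 2.58 ± 0.555 CPM in treated wild-type libraries (SD, n = 3) and was not called in any comparison.

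The P2Y-type receptors had the largest differences between the lines. Their promoters were picked for printing once searched, as the 250 bases before the start sites differ in the letters that LIM homeodomain proteins are known to bind. Nothing about the differences between the lines, which were present without doxycycline too, is read from these letters. RefSeq promoter windows on GRCm38.p6 were matched for 5 of the 6 genes, the receptors, and searched for TAATTA and TAATTG on both strands. No window was matched for *Enpp2*, so its promoter was not searched. A match is printed in capitals. The window of *Lpar4* is chrX:106920375-106920624 and that of *Lpar6* is chr14:73237641-73237890, both on the plus strand and printed 5′ to 3′.
*Lpar4*: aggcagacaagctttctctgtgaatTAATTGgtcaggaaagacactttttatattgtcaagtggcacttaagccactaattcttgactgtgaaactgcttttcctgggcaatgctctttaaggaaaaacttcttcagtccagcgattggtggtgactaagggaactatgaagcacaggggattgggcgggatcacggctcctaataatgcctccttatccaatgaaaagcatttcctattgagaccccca
*Lpar6*: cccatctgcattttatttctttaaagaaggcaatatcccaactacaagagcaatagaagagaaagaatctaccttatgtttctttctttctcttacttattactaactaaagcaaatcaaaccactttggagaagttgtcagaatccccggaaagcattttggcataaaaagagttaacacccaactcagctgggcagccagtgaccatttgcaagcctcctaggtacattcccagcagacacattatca
The *Lpar4* window holds TAATTG once, beginning 225 bases before the start site, and the *Lpar6* window holds neither motif. Of the 3 start sites listed for *Lpar1*, 1 has TAATTA, beginning 107 bases before it (chr4:58499404-58499653, minus strand). The windows of *Lpar2* and *Lpar3* hold neither. TAATTA occurs in 4.84% and TAATTG in 7.17% of all 32851 windows of this length, and these matches are letters only, with no binding measured. Both printed windows are poorer in G and C, at 43.6% and 39.2%, than the median window at 52.4%.

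*Lpar4* (X:106920625-106933900, plus strand), which can signal through several G proteins, was the most abundant receptor per exon length in the mutant line. In the wild-type line it stood at 42.1, 39.8 and 39.5 CPM without doxycycline and at 28.6, 30.9 and 32.6 CPM with it. All treated libraries lay below all untreated ones, and the log2 fold change was -0.40 (SE 0.10). The mutant line held 79.6, 81.0 and 69.9 CPM without and 73.4, 64.9 and 63.0 CPM with doxycycline. These ranges overlapped in 1 library of each group, and the change of -0.20 (SE 0.07) had an unadjusted p of 0.0106 in edgeR's quasi-likelihood test and an adjusted p of 0.999. The responses of the lines differed by -0.20 (SE 0.12).

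*Lpar6* (14:73237895-73243294, plus strand), the receptor linked to hair growth, was low in the wild-type line. It had 13, 10 and 12 counts in untreated wild-type libraries, or 3.09, 2.26 and 2.69 CPM. With doxycycline it had 25, 13 and 21 counts, or 5.71, 3.09 and 4.57 CPM. The groups met at the lowest treated and the highest untreated library, and the log2 fold change of 0.74 (SE 0.30) rests on few counts. It stood in the mutant line at 22.1, 22.4 and 25.2 CPM without and 19.1, 22.2 and 20.6 CPM with doxycycline, ranges that overlapped, and the change of -0.17 (SE 0.13) did not pass the test (edgeR, adjusted p = 0.999). In the wild-type response 3 of the 5 genes fitted, *Enpp2*, *Lpar2* and *Lpar4*, had groups that did not overlap, against 18.9% of all genes tested. As the choice of genes used that contrast, nothing is read from this count.

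**Figure D3:**
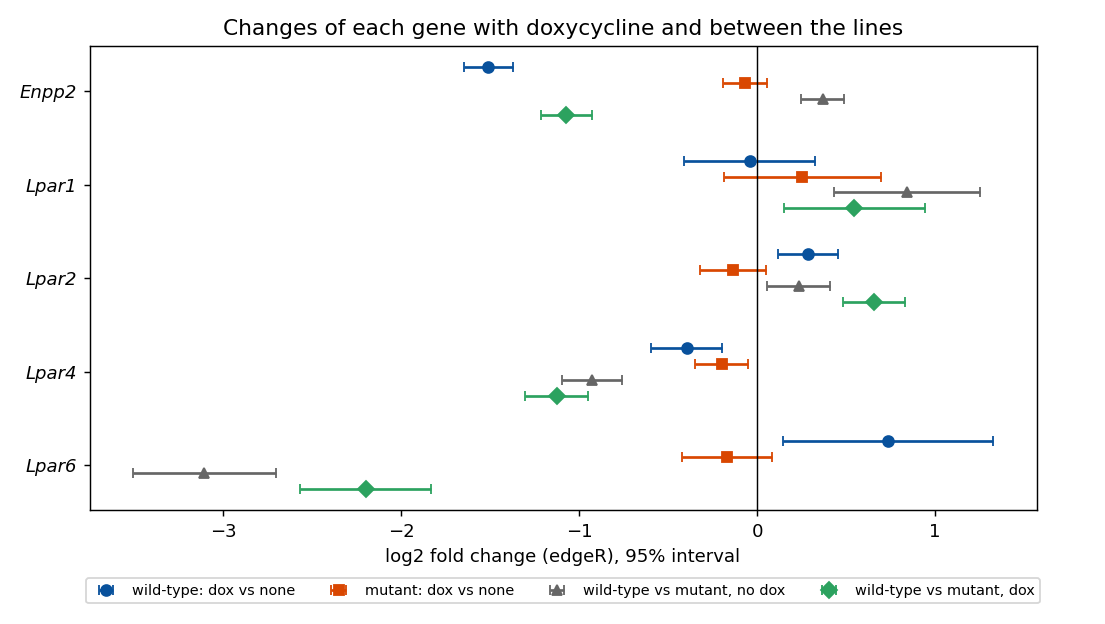
Log2 fold changes (horizontal axis) of the 5 genes that passed the filter, with 95% intervals, for doxycycline against none in each line and for wild-type against mutant in each condition. *Enpp2* is the gene with the response farthest below 0 in the wild-type line (-1.51), and *Lpar6* has the differences between the lines farthest below 0 (-3.11 and -2.20).

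The lines were then compared directly for the 4 receptors that passed the filter. Without doxycycline *Lpar1* and *Lpar2* were higher and *Lpar4* and *Lpar6* lower in the wild-type than in the mutant line. All 4 passed the test, against a background of 45.5% of all genes tested, and none of their groups overlapped, against 51.8%. The calls are therefore read by their size. *Lpar6* was 8.61-fold lower (log2 -3.11, SE 0.20, edgeR adjusted p = 2.55e-19), further down than all but 0.0406% of genes tested. *Lpar4* was 1.90-fold lower (log2 -0.93, SE 0.08, edgeR adjusted p = 4.93e-14). *Lpar1* was higher by 0.84 (SE 0.20, edgeR adjusted p = 0.000589) and *Lpar2* by 0.24 (SE 0.09, edgeR adjusted p = 0.0255). The call of *Lpar2* was lost with DESeq2 (adjusted p = 0.0933) and without any 1 of 3 libraries: untreated wild-type replicate 1 (0.0898), untreated wild-type replicate 2 (0.128) or untreated mutant replicate 2 (0.102).

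With doxycycline the same 4 receptors differed in the same directions, and all passed the test, against 44.4% of all genes tested. *Lpar6* was lower by -2.20 (SE 0.18, edgeR adjusted p = 3.92e-15) and *Lpar4* by -1.13 (SE 0.09, edgeR adjusted p = 6.40e-16). *Lpar2* was higher by 0.66 (SE 0.09, edgeR adjusted p = 7.77e-09) and *Lpar1* by 0.55 (SE 0.20, edgeR adjusted p = 0.0213). The call of *Lpar1* was lost with DESeq2 (adjusted p = 0.0899) and without treated wild-type replicate 2 (0.120), treated mutant replicate 2 (0.0869) or treated mutant replicate 3 (0.0568). It was also lost without both wild-type libraries that stood apart (0.107). None of the groups of these receptors overlapped, against 51.7% of all genes tested.

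The differences of the receptors between the lines have a chromosomal setting, which was looked at after their values were seen. Medians over whole chromosomes were shifted: without doxycycline the median log2 difference, wild-type less mutant, was 0.39 over the 623 other tested genes of chromosome 8 and -0.49 over the 415 of chromosome 14. Over the genes of all other chromosomes it was -0.02 and 0.01, respectively. With doxycycline the medians of chromosomes 8 and 14 were 0.37 and -0.45. Within 10 Mb of *Lpar6* on chromosome 14, the 90 other tested genes had a median log2 difference of -0.74 without doxycycline, with quartiles of -0.95 and -0.48. Its nearest tested neighbours were all lower in the wild-type line: *Rcbtb2* by -1.06, *Itm2b* by -1.11, *Med4* by -0.82 and *Fndc3a* by -0.81. *Rb1*, the retinoblastoma gene whose span on the opposite strand holds *Lpar6* and shares 408 exon bases with it, was lower by -0.67 (SE 0.16). The difference of *Lpar6* less the median of its region was -2.37. Within 10 Mb of *Lpar2* on chromosome 8, the 133 other tested genes had a median of 0.37, with quartiles of 0.15 and 0.60, so that the 0.24 of *Lpar2* lay inside the range of its region and under its median. With doxycycline that region had a median of 0.36 and quartiles of 0.11 and 0.55, and the 0.66 of *Lpar2* lay above the upper one.

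Around *Lpar4* on the X chromosome the median over 64 genes was -0.16, and around *Lpar1* on chromosome 4 it was -0.08 over 52 genes. Less those medians, the differences of the receptors were -0.76 and 0.92. The nearest tested neighbours of *Lpar4* were nonetheless all lower in the untreated wild-type line and all called, as *Lpar4* was: *Cysltr1* by -1.78, *Fndc3c1* by -0.87, *Itm2a* by -0.73 and *2610002M06Rik* by -0.55. With doxycycline the last 3 of these were again lower, by -0.72, -0.87 and -0.40, and *Cysltr1* was at 0.13 and not called. Of the neighbours of *Lpar1*, without doxycycline *Ptgr1* was higher by 1.70 and *Txn1* by 0.41, while *Akap2* at 0.19 and *Dnajc25* at -0.29 were not called. With doxycycline *Ptgr1* at 1.57, *Txn1* at 0.28 and *Akap2* at 1.85 were called, and *Dnajc25* at 0.48 was not. The part of these local differences was not tested. In the wild-type response *Akap2* rose by 1.63 (SE 0.09) and *Cysltr1* by 1.85 (SE 0.47), and both were called. The medians around all 4 receptors were between -0.05 and 0.03 in that response. The shifts of chromosomes 8 and 14 thus separate the lines and are not seen in the wild-type response. Their part in the differences of *Lpar2* and *Lpar6* was not tested.

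Levels of different genes can be compared only per length, for which CPM was divided by the length of the union of annotated exons. In untreated wild-type libraries the order was *Enpp2* at 22.3, *Lpar4* at 9.54, *Lpar2* at 8.52, *Lpar1* at 2.44, *Lpar6* at 0.496 and *Lpar3* at 0.122 CPM per kilobase, and no neighbours in this order had overlapping ranges. With doxycycline *Lpar2* led at 10.4 CPM per kilobase, and *Enpp2* at 7.82 and *Lpar4* at 7.24 had overlapping ranges. In untreated mutant libraries *Lpar4* at 18.1 and *Enpp2* at 17.3 CPM per kilobase overlapped, ahead of *Lpar2* at 7.23, *Lpar6* at 4.09 to 4.67 and *Lpar1* at 1.36. Treated mutant libraries held *Enpp2* at 16.5 and *Lpar4* at 15.8 CPM per kilobase, which overlapped too. The place of *Enpp2* depends on the length used: with the longest annotated transcript in place of the exon union it came first in all 4 groups.

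Summed over the 5 receptors, wild-type libraries held 20.7 to 21.6 CPM per kilobase without and 20.4 to 21.6 with doxycycline, and mutant libraries 30.1 to 32.1 and 27.5 to 28.8. The ranges of treated and untreated wild-type libraries overlapped for this sum, while its make-up differed. EDG-type receptors made up 51.3 to 53.5% of it without and 58.2 to 63.5% with doxycycline in the wild-type line. In the mutant line they made up 26.3 to 29.6% and 27.7 to 32.1%. In the mutant line *Lpar4* and *Lpar6* thus made up the larger share. In the wild-type line *Lpar2* took up from 36.9 to 43.0% of the sum without and from 47.4 to 51.2% with doxycycline. These shares restate the levels given above and were not tested on their own. The sum leaves out *Lpar5*, which averaged 1.21 CPM per kilobase in untreated and 1.70 in treated wild-type libraries, more than *Lpar6*. In mutant libraries *Lpar5* averaged 0.648 without and 0.942 with doxycycline. Counting it would lower the EDG-type shares given here.

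**Figure D4:**
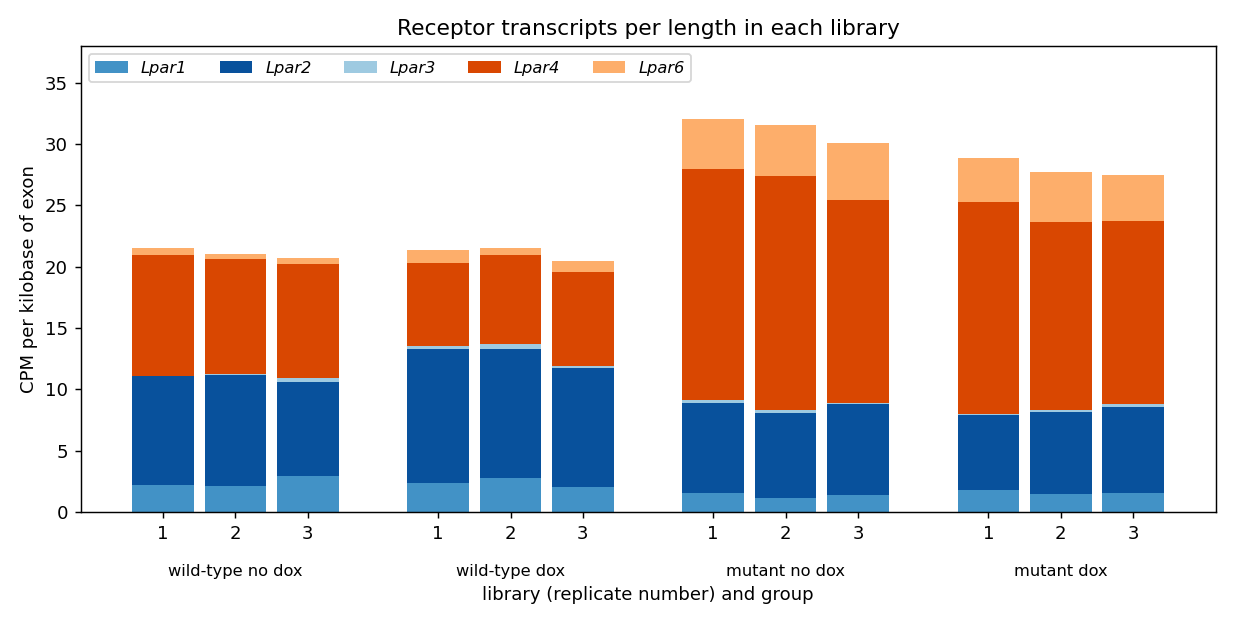
Receptor levels in CPM per kilobase of exon (vertical axis, from 0), stacked by receptor for each of the 12 libraries (horizontal axis, grouped by line and treatment). Stacks of the wild-type line stay between 20.4 and 21.6 with more *Lpar2* and less *Lpar4* after doxycycline, and those of the mutant line are taller, with more *Lpar4* and *Lpar6*.

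The rest of the pathway was read from 9 lists holding 96 genes, of which 76 passed the filter. In the wild-type response 2 were higher and 4 lower, against backgrounds of 2.76% and 2.56% of all genes tested. Together they were 7.89% of the 76, against 5.32%, and their median log2 change was -0.01 against 0.00 for all genes. In the mutant line none of the 76 was called. In the wild-type response no call fell among 3 tested relatives of the ENPP family or 9 other enzymes that can make lysophosphatidic acid. Nor was any of 11 genes that remove it or of 8 that make or use lysophosphatidylcholine called. With 5.32% of all genes tested called, lists this short can hold no call, so nothing is read from this.

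*Enpp3*, an ectoenzyme of the same family that hydrolyses nucleotides, averaged 101 ± 9.46 CPM without and 99.1 ± 2.86 CPM with doxycycline in the wild-type line (SD, n = 3). Among the other producers *Liph*, a phospholipase that makes lysophosphatidic acid from phosphatidic acid at the cell surface and whose product is known to act on *Lpar6*, averaged 35.6 ± 2.20 and 37.4 ± 0.411 CPM. *Ppap2b*, now called *Plpp3*, a phosphatase that breaks down the lipid outside cells, averaged 25.6 ± 1.34 and 26.1 ± 3.12 CPM. Neither enzyme was called in the wild-type response.

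Of 16 genes for G proteins and their effectors, all tested, 2 fell in the wild-type line. *Gnai2*, which encodes an inhibitory G protein subunit that receptors for lysophosphatidic acid use, averaged 325 ± 5.31 CPM without and 276 ± 10.7 CPM with doxycycline, a log2 change of -0.23 (SE 0.05, edgeR adjusted p = 0.000258). It was called in all 13 alternative analyses of that response. *Gnas*, the stimulatory subunit, changed by -0.17 (SE 0.05, edgeR adjusted p = 0.0164), and 6 of the 13 alternatives lost that call. The response of *Gnai2* differed between the lines by -0.28 (SE 0.06, edgeR adjusted p = 0.00361), where 2.49% of all genes tested were called (1.4% higher, 1.09% lower). *Tead1*, described next, was the other pathway gene called there, which makes 2.63% of the 76 tested.

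Of the 12 YAP/TAZ genes tested, 1 rose and 1 fell in the wild-type line. *Tead1*, a DNA-binding partner of YAP, averaged 44.8 ± 6.25 CPM without and 58.7 ± 5.09 CPM with doxycycline, a log2 change of 0.39 (SE 0.09, edgeR adjusted p = 0.00268). That call was lost without both wild-type libraries that stood apart (adjusted p = 0.211). *Ctgf*, a matricellular protein gene and a common YAP readout, averaged 40.6 ± 6.81 and 28.0 ± 1.31 CPM, a change of -0.53 (SE 0.12, edgeR adjusted p = 0.00305). It was lost without untreated wild-type replicate 1 (adjusted p = 0.0507). *Cyr61*, a related gene with the same use as a readout, went the other way without passing the test, at 0.41 (SE 0.23).

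Of 11 tested SRF and immediate early genes, only *Egr1*, a growth factor-induced zinc finger gene, was called, at -0.63 (SE 0.17, edgeR adjusted p = 0.0160), and 5 of the 13 alternatives lost it. *Srf* itself averaged 70.6 ± 4.63 and 68.9 ± 3.41 CPM. Among enzymes of sphingosine 1-phosphate, a related lipid, 1 of 3 was called: *Sgpl1*, the lyase that degrades it, at 0.23 (SE 0.07, edgeR adjusted p = 0.0386), a call that 10 of the 13 alternatives lost. The median log2 change was 0.06 over the YAP/TAZ and 0.03 over the SRF genes tested.

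**Figure D5:**
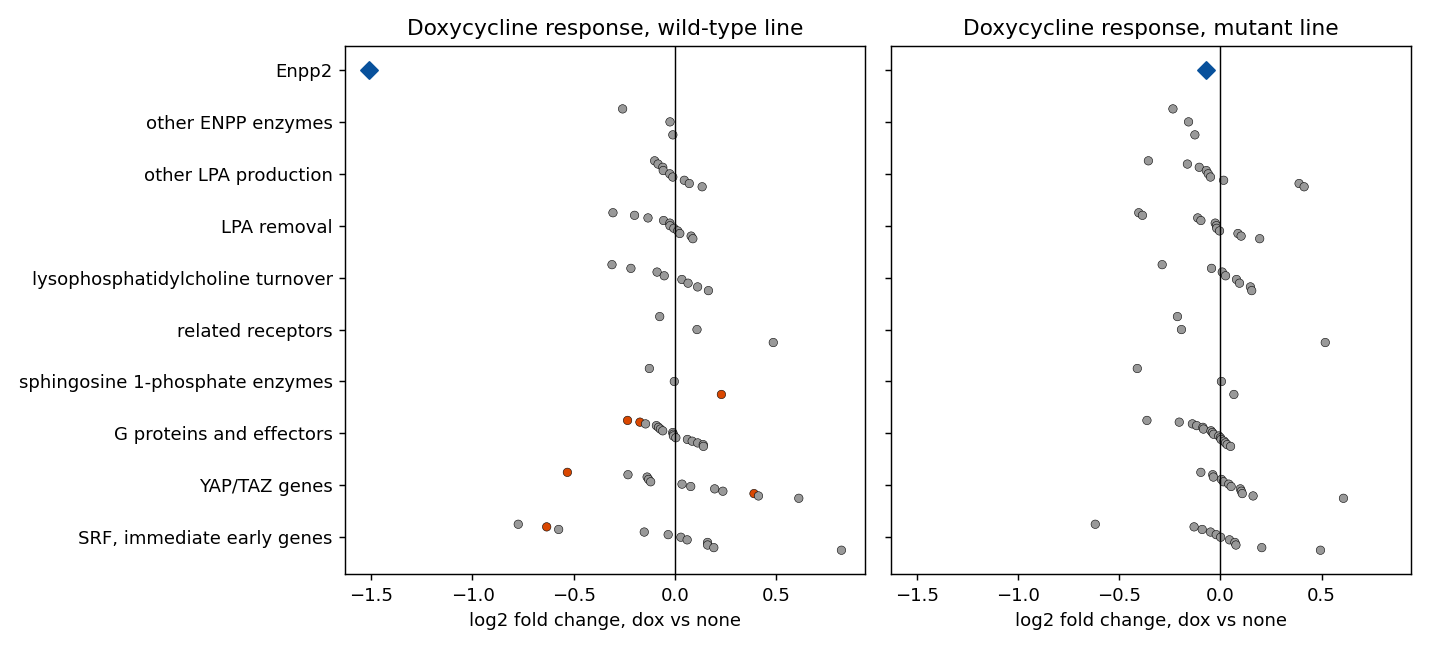
Log2 fold changes with doxycycline (horizontal axis) of the tested pathway genes, 1 row per list and 1 point per gene, in the wild-type line (left) and the mutant line (right); coloured points passed the test and *Enpp2*, drawn as a diamond, is shown with no test. All pathway points lie to the right of *Enpp2* in the wild-type line, between -0.77 and 0.82, and no point is coloured in the mutant line.

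Between the untreated lines 11 of the 76 pathway genes were higher and 30 lower in the wild-type line, with backgrounds of 22.6% and 23.0% of all genes tested. *Liph* was higher by 1.87 (SE 0.13), at 35.6 ± 2.20 CPM against 9.70 ± 0.482 CPM in the mutant line (SD, n = 3). *Gpat2*, which makes lysophosphatidic acid inside cells, was higher by 1.64 (SE 0.16) and *Ppap2b* by 1.07 (SE 0.14). The line with little *Lpar6* thus had the higher level of *Liph*.

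YAP/TAZ and SRF genes were mostly lower in the wild-type line. Of the YAP/TAZ genes 9 of 12 were called lower and 1 higher, against 23.0% and 22.6% of all genes tested. Among the lower ones were *Cyr61* at -2.33 (SE 0.17) and *Ajuba*, a LIM protein that restrains the Hippo kinases, at -1.01 (SE 0.07). Of the SRF genes 6 of 11 were called lower and 1 higher, against the same shares, with the smooth muscle genes *Tagln* at -3.20 (SE 0.09) and *Acta2* at -2.56 (SE 0.19). The chromosomal setting of the pathway genes was not looked at, and the part of the chromosome shifts was not tested. *Gnas* was lower by -0.91 (SE 0.05). With doxycycline 14 of the 76 were higher and 30 lower, against 22.4% and 21.9% of all genes tested, and the named genes kept their direction: *Liph* at 1.99, *Ppap2b* at 1.12, *Cyr61* at -2.02 and *Tagln* at -3.21.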

How the data were processed

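The deposited table holds the authors' raw counts of reads per gene for 12 libraries, matched to samples by column name. Per the labels' protocols, total RNA was extracted with the RNeasy Micro Kit and the TruSeq RNA Sample Prep Kit served for library preparation. Trimmomatic 0.33, TopHat2 2.1.1, mm10 and limma are named, per the submitters' processing notes. The counting tool, its annotation and its use of strand are not stated in the sources used here, so overlapping genes can share counts.

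All 12 libraries were fitted with 1 mean per group in edgeR 4.0.16 (R 4.3.3; TMM, filterByExpr with a minimum count of 10, robust quasi-likelihood test), leaving 12322 genes. Genes with a Benjamini-Hochberg adjusted p under 0.05, over all genes tested, were called. SEs were derived from the fold change and the F statistic of each test. Positions and exon lengths came from GENCODE M21. DESeq2 1.42.0, limma-voom (limma 3.58.1), other scaling, no filter, a replicate block and leaving out libraries were alternatives. On simulated counts the test recovered 66% of 1.5-fold rises in the wild-type and 72% in the mutant response, so small changes can be missed. False calls made up 2.92% and 6.08% of the calls there. All replicate pairs differed by more than sampling noise.

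The genes followed and the lists were chosen with earlier results of these data known. Named beside them are, by rule, *Lhx1*, *Lpar5*, *Rb1*, the next 3 abundant falls, the 2 nearest tested genes on each side of *Enpp2*, the 6 most similar profiles, up to 3 called genes per list in the wild-type response and 2 in other comparisons, and leading markers. *Rn45s*, *Srf*, *Cyr61*, *Liph* and *Ppap2b* in the wild-type response, *Gm26684* and markers other than the leading ones were picked out once their values were known. The same holds for the neighbours of the receptors and the medians over chromosomes and regions. The printed promoters were picked with the result of the search known.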

Additional observations from a re-analysis of the deposited data

Results flagged for a closer look

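The response to doxycycline differed between the lines for 2 genes of the pathway lists, by the test of the difference itself (edgeR quasi-likelihood test, Benjamini-Hochberg adjusted over all genes tested). They are 2.63% of the 76 pathway genes tested, near the 2.49% of all genes tested, so nothing is read from their number. For *Gnai2*, an inhibitory G protein subunit, the difference was -0.28 (SE 0.06, adjusted p = 0.00361), with -0.23 in the wild-type and 0.05 in the mutant line, and the adjusted p stayed between 0.00203 and 0.0315 over 18 alternatives. For *Tead1*, a partner of YAP, it was 0.49 (SE 0.12, adjusted p = 0.0110), with 0.39 and -0.10 in the lines, and 6 of the 18 alternatives lost the call, with adjusted p up to 0.174.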

How the results depend on the processing

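The fall of *Enpp2* in the wild-type line stayed between -1.54 and -1.48 on the log2 scale over all alternatives run, including leaving out each library and both wild-type libraries that stood apart. No call of *Enpp2* or of the receptors reversed, and those lost are given in the report. The counts of all genes called moved by over 1.5 times in 3 cases: DESeq2 called 380 in place of 655 genes in the wild-type response and 153 in place of 307 in the difference of the responses, and a fit of the mutant libraries alone called 5 in place of 2 (2 higher, 3 lower). Leaving out 1 library gave 498 to 594 calls in the wild-type response and 227 to 325 in the difference. The causes were not tested. The replicate numbers did not pair the libraries, as same-numbered libraries had correlations of -0.07 to 0.08 over 18 pairs and 3 of 12 libraries correlated best with their own number. With a replicate block the calls were 618 in the wild-type response, 2 in the mutant response and 286 in the difference, and 5502 and 5354 between the lines without and with doxycycline, and *Enpp2* changed by -1.51. A prior count of 0.5 in place of 2 gave the same 6 genes most like *Enpp2*. At this depth *Lpar3*, and changes of *Lpar6* within the wild-type line, lie near the limit of counting.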
